A study of Homo sapiens with 6 samples.

Results

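MR49F is an enzalutamide-resistant derivative of LNCaP, a human prostate adenocarcinoma cell line, and was grown here in medium with 10 µM enzalutamide, an antiandrogen drug. The data compared are the peak lists of 2 chromatin immunoprecipitations (ChIP-seq) from this line, 1 with an antibody to BRG1 and 1 with an antibody to SMARCC2. Each list comes from 1 library. All peaks of both lists were taken, 44308 BRG1 peaks and 47615 SMARCC2 peaks, which together make 91923 of the 153803 peaks in the 4 peak lists of the series. The other lists come from the same antibodies in LNCaP, for which no drug is given, and serve below as a second readout of the same sites. Cells of both lines were fixed with disuccinimidyl glutarate (DSG) and formaldehyde, and every group shares these steps. With 1 library per antibody there is no replicate, so no difference below has a replicate error or a test. The Wilson 95% intervals given with shares cover counting error only. Expression was not measured, so the identity of the line was not checked against marker transcripts.

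BRG1, encoded by SMARCA4, is an ATPase of the SWI/SNF (BAF) complexes, which use ATP to slide or evict nucleosomes. SMARCC2, also called BAF170, is a scaffold subunit that pairs with its paralogue SMARCC1 (BAF155) and carries no ATPase activity. SWI/SNF occurs as canonical BAF, PBAF and non-canonical BAF assemblies, which share several subunits. SWI/SNF complexes can carry SMARCA2 (BRM) in place of BRG1, and the paralogue SMARCC1 can fill both scaffold positions. In prostate cells SWI/SNF acts at enhancers, among them those that bind FOXA1.

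A peak was called co-occupied when it shared at least 1 bp with a peak of the other antibody, and BRG1-alone or SMARCC2-alone otherwise. Alone means that the other antibody did not reach the caller's q-value threshold there, not that the protein was missing. By this rule 35336 BRG1 peaks (79.8%, interval 79.4 to 80.1) and 36063 SMARCC2 peaks (75.7%, 75.4 to 76.1) were co-occupied. There were 8972 BRG1-alone peaks and 11552 SMARCC2-alone peaks. Most bases were shared as well. The 36650 overlapping pairs had 32.2 Mb in common, which is 68.1% of the bases under BRG1 peaks and 71.9% of those under SMARCC2 peaks.

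Single promoters give an example of each class at a gene start and need not be typical of it. The sequences below are the 250 bases before a RefSeq gene start (GRCh38.p14), printed 5′ to 3′ along the gene's strand, and each holds the summit of a peak of the class named. Capitals mark matches to any of the motifs searched further below. For the co-occupied class, SMARCD3 encodes a SWI/SNF accessory subunit (BAF60C), and NFKB1 encodes an NF-κB subunit.
SMARCD3, chr7:151248695-151248944, minus strand: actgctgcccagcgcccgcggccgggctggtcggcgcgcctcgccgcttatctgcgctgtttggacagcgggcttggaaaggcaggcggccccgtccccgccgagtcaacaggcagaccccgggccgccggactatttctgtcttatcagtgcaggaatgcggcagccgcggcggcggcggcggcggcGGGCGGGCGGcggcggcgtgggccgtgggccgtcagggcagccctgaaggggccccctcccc
NFKB1, chr4:102501684-102501933, plus strand: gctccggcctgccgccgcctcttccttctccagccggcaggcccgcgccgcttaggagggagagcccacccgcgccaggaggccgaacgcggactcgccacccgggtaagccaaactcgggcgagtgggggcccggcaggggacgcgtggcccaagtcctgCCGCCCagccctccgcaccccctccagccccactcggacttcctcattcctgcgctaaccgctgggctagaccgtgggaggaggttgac
At this SMARCD3 start the BRG1 peak (chr7:151248042-151249554) had 52 tags at its summit and a −log10 q-value of 26.6, and the SMARCC2 peak had 37 tags and 20.1, with summits 88 bp apart. At NFKB1 the values were 30 tags and 10.4 for BRG1 and 22 tags and 11.7 for SMARCC2, with summits 757 bp apart. These windows contained 76% and 72.8% G or C.

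For the BRG1-alone class, another start of SMARCD3 and a start of the linker histone gene H1-2 are shown, the 2 examples found among the genes named.
SMARCD3, chr7:151276735-151276984, minus strand: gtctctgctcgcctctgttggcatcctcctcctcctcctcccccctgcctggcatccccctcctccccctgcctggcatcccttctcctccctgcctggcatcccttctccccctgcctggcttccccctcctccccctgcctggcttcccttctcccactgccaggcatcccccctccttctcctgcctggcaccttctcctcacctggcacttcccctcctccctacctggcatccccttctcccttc
H1-2, chr6:26056471-26056720, minus strand: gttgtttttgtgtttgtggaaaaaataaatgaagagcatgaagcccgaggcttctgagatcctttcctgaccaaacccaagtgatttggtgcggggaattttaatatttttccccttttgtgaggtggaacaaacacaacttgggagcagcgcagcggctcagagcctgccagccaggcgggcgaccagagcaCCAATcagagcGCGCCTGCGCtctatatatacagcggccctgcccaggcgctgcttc
The BRG1 summit at the SMARCD3 start had 18 tags and a −log10 q-value of 7.53, and that at H1-2 had 19 tags and 6.28. SMARCD3 therefore had 1 start with both subunits called and 1 with BRG1 called alone. This second SMARCD3 window held none of the motifs searched.

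For the SMARCC2-alone class, the examples were VGLL4, whose product competes with YAP for TEAD factors, and HSD3B1, the 3β-hydroxysteroid dehydrogenase gene of androgen synthesis.
VGLL4, chr3:11582357-11582606, minus strand: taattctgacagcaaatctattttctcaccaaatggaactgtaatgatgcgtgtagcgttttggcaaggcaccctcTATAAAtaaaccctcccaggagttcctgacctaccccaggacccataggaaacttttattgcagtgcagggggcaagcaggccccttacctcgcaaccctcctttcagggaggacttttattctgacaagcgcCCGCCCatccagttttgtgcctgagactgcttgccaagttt
HSD3B1, chr1:119506953-119507202, plus strand: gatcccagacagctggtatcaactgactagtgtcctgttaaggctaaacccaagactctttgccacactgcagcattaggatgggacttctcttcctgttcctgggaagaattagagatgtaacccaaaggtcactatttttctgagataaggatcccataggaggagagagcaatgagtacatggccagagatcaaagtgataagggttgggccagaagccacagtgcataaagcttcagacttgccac
The SMARCC2 summit had 22 tags and a −log10 q-value of 8.25 at VGLL4, and 20 tags and 4.84 at HSD3B1. These windows contained 49.2% and 46.8% G or C, the lowest of the 6 and below the lower quartile (57.3%) of all promoter windows with SMARCC2 and no BRG1, and HSD3B1 held none of the motifs.

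Co-occupied peaks were wider and stronger than alone peaks in both lists. The median width of BRG1 peaks was 937 bp (quartiles 628 and 1445) when co-occupied and 528.5 bp (424 and 711) when alone. For SMARCC2 the medians were 881 bp (630 and 1282) and 498 bp (414 and 627). The classes were defined by overlap, and a wider peak meets that rule more easily. The widths therefore depend in part on the rule, and how much of the difference it makes was not tested. The number of tags covering a summit was recovered from the fold and p-value that the authors' caller gave each peak. Its median was 30 at co-occupied and 18 at alone BRG1 peaks, and 30 at co-occupied and 20 at alone SMARCC2 peaks. Local background at those summits, in the same unit, had medians of 4.77 and 4.12 tags for BRG1, and 4.51 and 3.75 tags for SMARCC2. Both the tags and the background were thus lower at alone peaks. The widest BRG1-alone peak spanned 3.16 kb at LRRC45, and the widest SMARCC2-alone peak spanned 2.43 kb inside KCTD3. The widest co-occupied BRG1 peak reached 30.6 kb, over NFIX, a nuclear factor I gene, and held 6 SMARCC2 peaks. The widest co-occupied SMARCC2 peak covered 18.3 kb inside EHF, an epithelial ETS factor gene.

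Most co-occupied sites matched 1 peak to 1 peak. Of the co-occupied BRG1 peaks, 1210 (3.42%) spanned 2 or more SMARCC2 peaks, with a median width of 2789 bp. Of the SMARCC2 peaks, 576 (1.60%) spanned 2 or more BRG1 peaks. In 55.3% of pairs the BRG1 peak was the wider one. Few pairs sat at the edge of the rule, since 19 of 36650 shared 10 bp or fewer. On chromosome 4 a BRG1 peak (101189117 to 101189808) and a SMARCC2 peak (101189808 to 101190278) shared a single base and were counted as co-occupied. On chromosome 16 a BRG1 peak (89341764 to 89342319) and a SMARCC2 peak (89342321 to 89342688) lay 1 bp apart and were counted as alone. The nearest SMARCC2 peak was within 1 kb of 17.1% of BRG1-alone peaks, and the median gap was 8913.5 bp. The nearest BRG1 peak was within 1 kb of 9.65% of SMARCC2-alone peaks, and the median gap was 16204 bp. BRG1-alone peaks therefore lay closer to sites of the other subunit than SMARCC2-alone peaks did.

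Co-occupancy followed peak strength in both lists but fell off earlier for SMARCC2. Each list was ranked by −log10 q-value and divided into deciles, with decile 1 the strongest. In the BRG1 list the co-occupied share was 99.6% in decile 2, 96.0% in decile 4, 83.2% in decile 6 and 52.2% in decile 9. In the SMARCC2 list it was 95.3%, 85.2%, 74.7% and 55.5% in the same deciles. Deciles 1, 2 and 3 held 2, 18 and 87 alone peaks for BRG1 and 53, 224 and 411 for SMARCC2. The order turned in decile 9, and in the weakest decile 38.5% of BRG1 and 47.2% of SMARCC2 peaks were co-occupied.

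**Figure D1:**
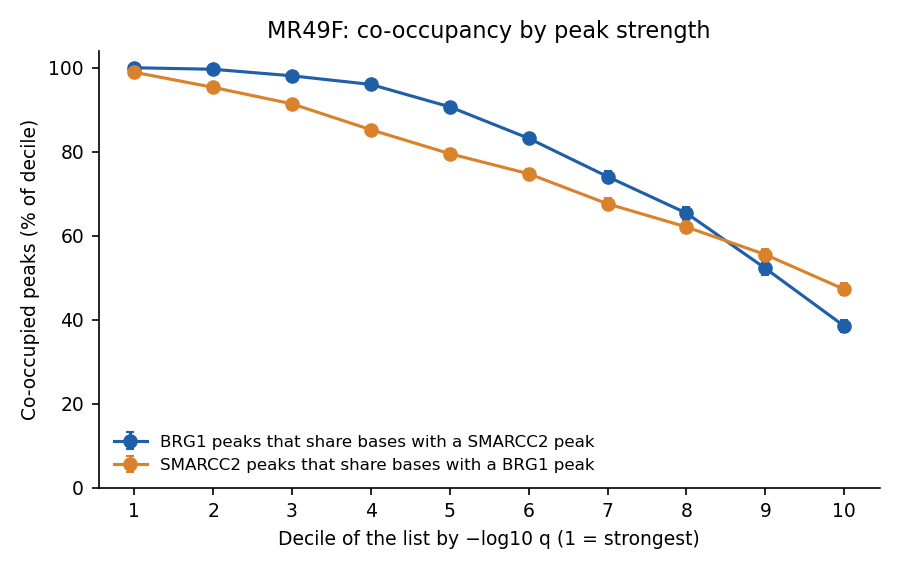
Share of MR49F peaks that share at least 1 bp with a peak of the other antibody (y axis, percent) by decile of each list ranked by −log10 q-value (x axis, 1 is the strongest), with Wilson 95% intervals as bars. The SMARCC2 curve lies below the BRG1 curve from decile 1 to 8 and above it in deciles 9 and 10.

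The strengths of the partners went together. Over the 35336 co-occupied BRG1 peaks, each with its nearest SMARCC2 summit, the fold enrichments correlated with Spearman's rho of 0.72 and, on the log2 scale, Pearson's r of 0.78. These are correlations across sites that share the cells and the fixation, and sites are not replicates. Of the co-occupied BRG1 peaks in the strongest decile, 3210 of 4429 (72.5%) had a SMARCC2 partner in the strongest decile of its own list, and 42 had one in the weaker 5 deciles. The balance differed with location. At gene ends the BRG1 peak stood in a higher decile than its partner in 52.1% of pairs and the SMARCC2 peak in 27.2%. Between genes these shares were 30.2% and 40.8%. Median summit tags at gene ends were 31 for BRG1 and 29 for SMARCC2, and between genes 29 and 32.

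The strongest co-occupied site lay on chromosome 3 (122651167 to 122653112), 12.8 kb from PARP15, with 711 BRG1 tags and 1088 SMARCC2 tags at summits 2 bp apart. The next was inside ZBTB16 on chromosome 11 (114176245 to 114180949), where BRG1 had 434 tags and SMARCC2 1141, the highest SMARCC2 value of the list. ZBTB16 encodes the zinc finger repressor PLZF and is induced by androgens and glucocorticoids. The others were on chromosome 5 (15356045 to 15357993, no protein-coding gene end within 100 kb), inside TRIM36 (chromosome 5, 115175324 to 115178182) and inside MEIOSIN (chromosome 19, 45742312 to 45744096). These had 297 to 349 BRG1 tags and 405 to 573 SMARCC2 tags. All 5 sites were also called with both antibodies in LNCaP.

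The strongest alone peaks were far weaker than these. The top BRG1-alone peak, 75.8 kb from PLS3 on chromosome X (115726320 to 115728083), had 51 tags and ranked 3572 in its list, and a SMARCC2 peak lay 4.33 kb away. Another lay 0.257 kb from an end of STARD7 on chromosome 2 (96207919 to 96209508), with 42 tags. The remaining ones among the top 5 lay on an unplaced scaffold, 8.26 kb from ZNF33B on chromosome 10 (42645967 to 42647082), and on chromosome 21 (16308950 to 16310804). The top SMARCC2-alone peak, 44.1 kb from OTX2 on chromosome 14 (56854175 to 56854898), had 93 tags, ranked 1773 and was 193 kb from the nearest BRG1 peak. It was followed by peaks inside ASIP and AHCY (chromosome 20, 34252547 to 34253262, 89 tags), on chromosome 10 (35979017 to 35979682, 70 tags), inside TENT2 (chromosome 5, 79668438 to 79669026, 90 tags) and 85.2 kb from RIMS1 (chromosome 6, 72488087 to 72488724, 62 tags). None of the top 5 SMARCC2-alone summits lay within 1 kb of a gene end, and their gaps to BRG1 peaks ran from 10.5 to 193 kb.

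Summits of the subunits lay close together at co-occupied sites. Only overlapping peaks were measured, so peak width limits how far apart these summits can lie. The distance was measured from each BRG1 summit to the nearest SMARCC2 summit among its partners. Its median was 68 bp (quartiles 26 and 173), less than a nucleosome's length of DNA. Summits were within 50 bp at 41.4%, within 200 bp at 78.3% and within 1 kb at 97.9% of sites. The distance had no preferred side, with SMARCC2 at the higher coordinate in 49.7% and at the lower in 49.6%. It was shortest at strong sites, with a median of 27 bp in the strongest decile of BRG1 peaks and 160 bp in the weakest. Weaker peaks have fewer tags to place a summit, and the part of this in the distance was not tested.

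Gene ends stood out with wider spacing. The median distance was 122 bp (quartiles 50 and 248) at gene ends, 62 bp (24 and 163) elsewhere inside genes and 52 bp (21 and 122) between genes. Co-occupied BRG1 peaks at gene ends were also wider, 1134 bp against 924 and 837 bp, at 31, 29 and 29 median summit tags. At 749 sites the summits were more than 1 kb apart, and 29.1% of these were at gene ends, compared with 23.2% of all co-occupied BRG1 peaks.

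**Figure D2:**
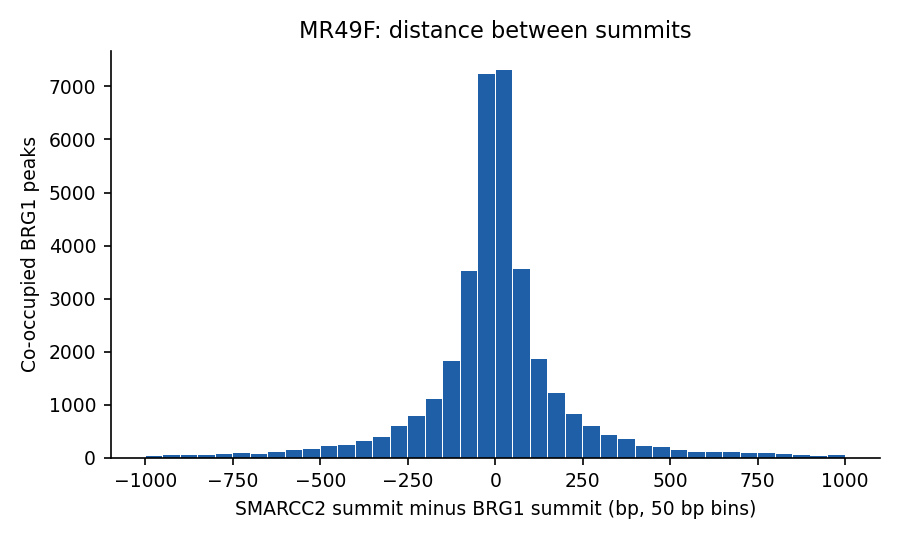
Number of co-occupied BRG1 peaks in MR49F (y axis) by the position of the nearest SMARCC2 summit relative to the BRG1 summit (x axis, bp, bins of 50 bp, positive at higher coordinates). The counts centre on 0 and fall off alike on both sides, and distances over 1 kb are not drawn.

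The alone classes also differed in where they lay. A gene end is a position within 1 kb of either end of a protein-coding gene, and 23.2% (22.8 to 23.7) of co-occupied BRG1 summits and 19.5% (18.7 to 20.4) of BRG1-alone summits fell there. Of SMARCC2-alone summits 7.35% (6.89 to 7.85) did. Elsewhere inside genes lay 45.0%, 44.6% and 50.2% of these classes, and between genes 31.8%, 35.9% and 42.4%. The median distance to a gene end was 18.4 kb for co-occupied BRG1, 14.4 kb for BRG1-alone and 43.8 kb for SMARCC2-alone peaks. No protein-coding gene end lay within 100 kb of 32.2% of SMARCC2-alone peaks, compared with 15.0% of BRG1-alone peaks.

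For genes whose start RefSeq gives here, the gene-end peaks were mostly at starts. Within 1 kb of a start lay 17.4% (16.7 to 18.3) of BRG1-alone and 6.59% (6.14 to 7.07) of SMARCC2-alone peaks, beside 21.9% of co-occupied peaks of either list. At the far end and not at a start lay 1.78%, 1.03% and 1.27% of BRG1-alone, SMARCC2-alone and co-occupied BRG1 peaks.

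From decile 2 on the SMARCC2 classes also differed beyond counting error at like rank. SMARCC2-alone peaks in deciles 1 and 2 had 0 of 53 and 0 of 224 summits at gene ends, with upper Wilson limits of 6.76% and 1.69%. Co-occupied SMARCC2 peaks of those deciles had 5.44% and 16.8%, so in decile 1 no difference was detectable. In decile 5 the shares were 3.69% (2.68 to 5.06) for alone and 28.0% for co-occupied SMARCC2 peaks, and in decile 10 they were 10.3% and 30.1%. BRG1-alone peaks were closer to the co-occupied share from decile 4 on, with 27.0% against 27.4% in decile 4, 24.5% against 24.7% in decile 6, 17.0% against 21.4% in decile 9 and 17.0% against 19.4% in decile 10. In decile 3 the BRG1-alone share was 11.5% (6.36 to 19.9), from 87 peaks, against 26.9%. When both lists were limited to peaks whose −log10 q-value reached 5, the BRG1-alone share rose to 26.0%, above the co-occupied share of 22.9%, so the order of these classes depends on the threshold. The SMARCC2-alone share was 9.30% in that setting. With 50% reciprocal overlap the SMARCC2-alone share came to 14.4% and the BRG1-alone share to 22.0%.

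**Figure D3:**
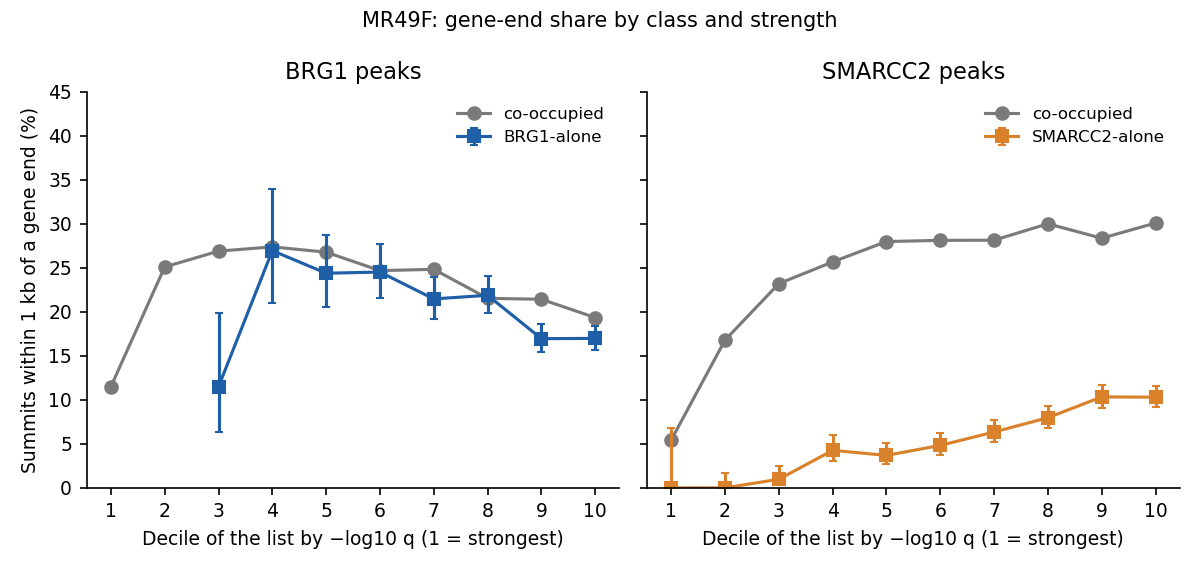
Share of summits within 1 kb of a protein-coding gene end (y axis, percent) by decile of the BRG1 list (left) and of the SMARCC2 list (right), with co-occupied peaks in grey and alone peaks in colour, and Wilson 95% intervals on alone peaks. Deciles 1 and 2 of BRG1 have 2 and 18 alone peaks and are not drawn, and SMARCC2-alone peaks lie below co-occupied ones in every decile.

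Seen from the location, BRG1 was called at 90.8% (90.2 to 91.4) of SMARCC2 peaks at gene ends and at 70.0% (69.3 to 70.7) of those between genes. It was called at 91.4% of SMARCC2 peaks 0.25 to 1 kb from a gene end, 75.8% at 5 to 20 kb and 64.9% beyond 100 kb. The share of BRG1 peaks with SMARCC2 moved less, from 82.4% at gene ends to 77.8% between genes, and it was 82.9%, 75.6% and 83.5% over the same distances. BRG1 peaks thus had their lowest SMARCC2 share at 1 to 20 kb, while the BRG1 share of SMARCC2 peaks fell in each step beyond 0.25 to 1 kb.

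Promoter windows with BRG1 and no SMARCC2 outnumbered the reverse. Of 22198 windows from 250 bases before to 50 bases after a start of a protein-coding gene, 5727 (25.8%) touched peaks of both antibodies, 2309 (10.4%) a BRG1 peak and no SMARCC2 peak, and 1049 (4.73%) the reverse. Windows with both had a median of 69.7% G or C and 30 CpG dinucleotides. Those with BRG1 and without SMARCC2 had 65.3% and 26, and those with SMARCC2 and without BRG1 had 65.0% and 26. Windows with neither had 57.7% and 12. The windows with 1 subunit were thus alike in base composition while differing in number. They are not the alone classes, since a co-occupied peak can touch a window that its partner peak misses. How many windows were of this kind was not counted. Base composition can also affect how fragments are amplified and sequenced, and its part in these classes was not tested.

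Motifs were counted in the same windows on both strands, and a match of 1 motif may overlap that of another. The GC box GGGCGG was found in 77.1% of windows with both subunits, 71.5% with BRG1 and no SMARCC2, 67.3% with the reverse, 43.7% with neither and 56.3% of all windows. The letters CCGGAAGT of ETS factors were most frequent in windows with BRG1 and no SMARCC2, at 9.40% (8.27 to 10.7), against 5.74% with both, 7.34% (5.91 to 9.08) with SMARCC2 and no BRG1 and 5.33% of all. An NRF1 consensus had 12.3% and 12.2% in windows with 1 subunit, 8.71% with both and 7.38% of all. A YY1 consensus had 2.43% and 2.00% in windows with 1 subunit, 1.13% with both and 1.18% of all, and a ZNF143 consensus had 2.51%, 2.19%, 1.07% and 1.29%. The CCAAT box CCAAT was in 38.4% of windows with BRG1 and no SMARCC2, 32.2% with the reverse, 28.3% with both and 34.7% of all. TATAAA was least frequent in windows with both, at 4.35%, against 9.47% of all. The cyclic AMP response element TGACGTCA (3.03%, 3.34%, 2.46% and 2.26% for BRG1 without SMARCC2, the reverse, both and all), the AP-1 site TGANTCA (3.94%, 3.72%, 4.47% and 6.15%), the E-box CACGTG (10.9%, 9.63%, 9.39% and 8.34%) and the forkhead site TGTTTAC (1.73%, 2.00%, 2.48% and 2.85%) were the others. A match is a description of letters and not of binding.

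Across chromosomes the alone classes ran in opposite directions. On chromosome 19, the most gene-dense, 35.1% (32.6 to 37.7) of BRG1 peaks and 13.0% (11.2 to 15.2) of SMARCC2 peaks were alone, that is 479 against 141 peaks. Chromosomes 22 (28.1% and 14.6%), 16 (28.0% and 17.7%) and 17 (24.9% and 15.7%) showed the same direction. BRG1-alone peaks outnumbered SMARCC2-alone peaks on these 4 of 23 chromosomes, chromosome 20 had 251 of each, and the other 18 had more SMARCC2-alone peaks. On chromosome 4 the shares were 16.3% and 29.5%, and on chromosome 13, with the fewest genes per Mb of the 23, they were 20.9% and 30.6%. Over the 23 chromosomes other than Y, genes per Mb went with the BRG1-alone share (Pearson's r 0.84, Spearman's rho 0.59) and against the SMARCC2-alone share (r −0.79, rho −0.84). Without chromosomes 17 and 19 r was 0.59 and −0.82. These are descriptions over chromosomes of the same libraries. The median background at BRG1 summits also differed between these chromosomes, from 3.47 tags on 13 to 5.21 on 15, and its part was not tested.

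**Figure D4:**
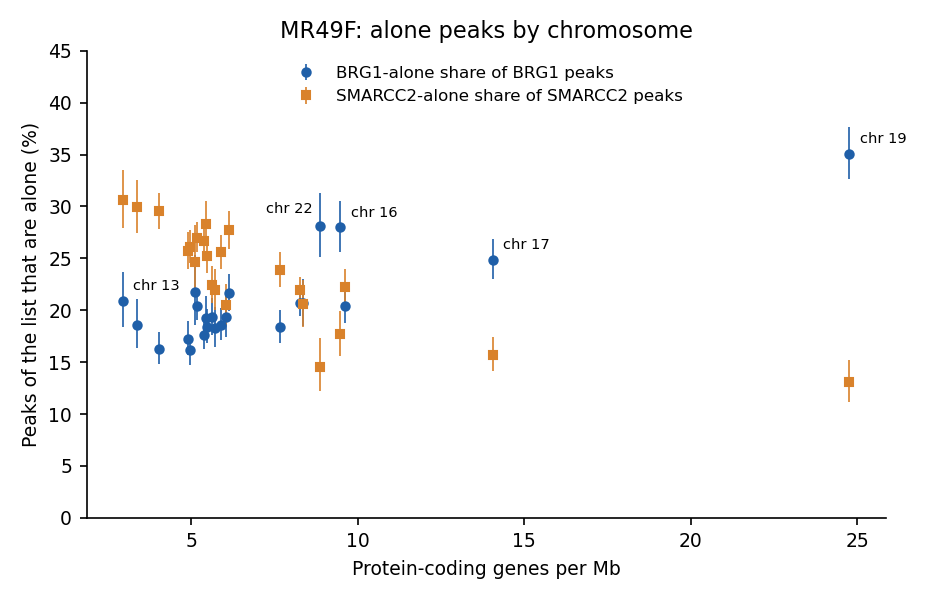
Share of the BRG1 list that is BRG1-alone and of the SMARCC2 list that is SMARCC2-alone on each chromosome except Y (y axis, percent, with Wilson 95% intervals) against protein-coding genes per Mb (x axis). Chromosome 19 has the highest BRG1-alone and the lowest SMARCC2-alone share.

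The LNCaP lists, which the rule did not use, held the classes to different degrees. A LNCaP BRG1 peak overlapped 59.2% (58.7 to 59.8) of co-occupied BRG1 peaks, and a LNCaP SMARCC2 peak overlapped 48.3% (47.8 to 48.8). For BRG1-alone peaks these shares were 31.0% (30.1 to 32.0) and 13.5% (12.8 to 14.2). For SMARCC2-alone peaks they were 23.2% (22.5 to 24.0) and 18.4% (17.7 to 19.1). Line and drug differ together between these lists and cannot be told apart. Alone peaks were also narrower and weaker than co-occupied ones, and the part of width and strength in these shares was not tested. The BRG1-alone share with LNCaP BRG1 was 48.3% in decile 4 and 25.4% in decile 10. The LNCaP lists differ in length, 36174 BRG1 against 25706 SMARCC2 peaks. The share with LNCaP BRG1 was 1.23 times that with LNCaP SMARCC2 at co-occupied, 2.30 times at BRG1-alone and 1.27 times at SMARCC2-alone peaks. Neither LNCaP antibody gave a peak at 35.0% of co-occupied BRG1, 65.9% of BRG1-alone and 70.6% of SMARCC2-alone peaks.

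In the SMARCC2 list the strong alone peaks overlapped LNCaP SMARCC2 somewhat more often than LNCaP BRG1. Deciles 1 to 4 held 53, 224, 411 and 704 alone peaks, and no intervals were computed for these shares. In deciles 1 to 4 LNCaP SMARCC2 overlapped 22.6%, 30.8%, 27.3% and 25.7% of SMARCC2-alone peaks, and LNCaP BRG1 13.2%, 22.3%, 23.4% and 23.9%. From decile 5 to 10 LNCaP BRG1 was found more often, with 24.1% against 21.8% in decile 5 and 22.8% against 13.5% in decile 10. BRG1-alone peaks were found with LNCaP BRG1 more often than with LNCaP SMARCC2 in each of deciles 2 to 10.

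Genes were linked to peaks by the nearest end of a protein-coding gene within 100 kb of the summit. Of 20033 genes, 12277 (61.3%) had at least 1 co-occupied BRG1 peak, 5615 (28.0%) at least 1 BRG1-alone peak and 5107 (25.5%) at least 1 SMARCC2-alone peak. Alone peaks mostly accompanied co-occupied ones. Only BRG1-alone peaks were linked to 1191 genes (5.95%), and only SMARCC2-alone peaks to 747 (3.73%), whereas 2012 genes had both alone kinds. A long gene or a gene with long flanks collects more peaks of each class.

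The gene with the most co-occupied BRG1 peaks was KDM6A, which encodes a histone H3 lysine 27 demethylase, with 37, beside 8 BRG1-alone and 10 SMARCC2-alone peaks. Its co-occupied BRG1 summits had 16 to 114 tags with a median of 23. PRKD1, a protein kinase gene, had 24, CASZ1, a zinc finger factor gene, 22, and LIMCH1 and ZBTB16 21 each. GRB10, an adaptor of the insulin receptor family, and GRHL2, an epithelial grainyhead factor, had 20 each, and IGF1R had 18. All 8 genes also had alone peaks of both kinds, and these were few at GRHL2 (2 BRG1-alone and 3 SMARCC2-alone).

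BRG1-alone peaks were most frequent at STXBP5, with 14 beside 12 co-occupied and 4 SMARCC2-alone peaks. The 14 had 14 to 35 summit tags with a median of 18, while the 12 co-occupied ones had 19 to 99 with a median of 28. MIPEP, a mitochondrial peptidase gene, had 10 BRG1-alone, 13 co-occupied and 0 SMARCC2-alone peaks. PRKACB, a catalytic subunit of protein kinase A, had 10 BRG1-alone peaks and 1 SMARCC2-alone peak. FBXL17 and LOC128462377 had 9, and DDC, the aromatic L-amino acid decarboxylase gene, GRB10 and ITPRID2 had 8. The last place was shared by 4 genes with 8 peaks and decided by symbol.

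PPP3CA, which encodes a calcineurin catalytic subunit, led the SMARCC2-alone class with 16 such peaks, 13 co-occupied and 4 BRG1-alone. Its SMARCC2-alone summits had 13 to 24 tags with a median of 15.5. Of the 16 peaks, 10 overlapped a LNCaP BRG1 peak and 10 a LNCaP SMARCC2 peak. Over all SMARCC2-alone peaks these shares were 23.2% and 18.4%. KDM6A followed with 10. Then came 6 genes with 8 each. EPHA3, an ephrin receptor gene, had 9 co-occupied and 0 BRG1-alone peaks, and its SMARCC2-alone summits had 14 to 27 tags against 32 to 87 at its co-occupied SMARCC2 summits. C8orf34 had 2 co-occupied and 0 BRG1-alone peaks, and its SMARCC2-alone summits had 13 to 56 tags. The others were EFNA5, an ephrin ligand gene, CCDC192, UBE2E3 and ZBTB16. With assignment within 10 kb in place of 100 kb, PPP3CA, C8orf34, EFNA5 and ZBTB16 had 0 SMARCC2-alone peaks, and FBXL17 and GRB10 had 0 BRG1-alone peaks. The co-occupied peaks of the 8 leading genes fell to between 1 and 4 each, so these ranks rest on distant peaks. The ranks also moved with the other settings. With −log10 q-values limited to 5 and above, PPP3CA had 7 SMARCC2-alone peaks and EPHA3 8, and STXBP5 had 6 BRG1-alone peaks while PRKACB and FBXL17 had 7. With 50% reciprocal overlap KDM6A had 25 SMARCC2-alone peaks and PPP3CA 22.

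The genes of the complex itself are described by module. Of 14 genes of core and ATPase subunits, 11 had a co-occupied BRG1 peak within 1 kb of an end, where 38.2% of all genes did. SMARCC2 had 1 co-occupied site and no alone peak, with 41 BRG1 tags and 34 SMARCC2 tags. SMARCA4 had 4 co-occupied BRG1 peaks with 18 to 27 tags and 2 BRG1-alone peaks with 21 and 25 tags, so the alone summits were within the range of the co-occupied ones. SMARCA2, the alternative ATPase, had 7 co-occupied, 1 BRG1-alone and 1 SMARCC2-alone peaks. SMARCC1 had 5 co-occupied BRG1 peaks with 23 to 31 tags and 3 SMARCC2-alone peaks with 17 to 18 tags.

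A co-occupied BRG1 peak at an end was found at 3 of the 7 genes of canonical BAF subunits (42.9%), close to the share of all genes. Together they had 15 co-occupied, 7 BRG1-alone and 11 SMARCC2-alone peaks. ARID1B, a DNA-binding BAF subunit gene, had 11, 5 and 5. SS18, a small BAF subunit gene, had 5 SMARCC2-alone peaks with 16 to 47 tags beside 2 co-occupied ones. ARID1A, the paralogue of ARID1B, had 1 BRG1-alone peak, with 16 tags, and no co-occupied peak linked to it. Among the PBAF genes, ARID2 had 3 and PBRM1 2 SMARCC2-alone peaks, and BRD7 and PHF10 had 0 alone peaks of either kind. The 3 non-canonical BAF genes, BRD9, BICRA and BICRAL, had 8 co-occupied, 2 BRG1-alone and 0 SMARCC2-alone peaks.

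Over all 43918 peaks linked to genes (co-occupied sites counted by their BRG1 peaks), 64.9% were co-occupied, 17.3% BRG1-alone and 17.8% SMARCC2-alone, and the median gene had 1, 0 and 0. The 28 gene lists set beside this background were chosen with results of the series known and are described by their counts. The AP-1 list, which holds stress-responsive bZIP factors, had 29 co-occupied, 15 BRG1-alone and 2 SMARCC2-alone peaks, a BRG1-alone share of 32.6%. A BRG1-alone peak was linked to 9 of its 16 genes (28.0% of all genes), and a SMARCC2-alone peak to 2 (25.5% of all genes). At FOS the 3 BRG1-alone summits had 12, 17 and 40 tags, as the lowest, median and highest, beside 5 co-occupied BRG1 summits with 24 to 59. At JUNB the 3 BRG1-alone summits had 28 to 30 tags, and the 2 co-occupied ones 20 and 59. JUN had 1 co-occupied site, 3989 bp wide in BRG1 with 47 tags, and 2 BRG1-alone peaks. At FOS and JUNB the alone and co-occupied BRG1 tags overlapped.

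Further lists with a BRG1-alone share above the background included replication-dependent histones (38.5%, 10 of 26 peaks), cytosolic ribosomal proteins (29.7%, 19 of 64) and HOX clusters (26.5%, 9 of 34). Others were the mesenchymal list (23.5%, 8 of 34, with the same share SMARCC2-alone) and receptor kinases and survival genes (21.4%, 27 of 126). Among lists of other cell types the share was 36.4% for fibroblast genes (8 of 22) and 40% for leukocyte genes (4 of 10). A high BRG1-alone share was thus not particular to AP-1, histone or ribosomal protein genes. Of the 24 histone genes, 7 (29.2%) had a BRG1-alone peak at an end, against 8.43% of all genes, and 7 had a co-occupied one, against 38.2%. H4C8, a histone H4 gene, had 3 BRG1-alone peaks with 20 to 24 tags. Of the 28 ribosomal protein genes, 20 had a co-occupied BRG1 peak at an end, and RPLP1 had 7 co-occupied and 3 BRG1-alone peaks in all. AKT1 and BCL2L1, a kinase and an anti-apoptotic gene, had 3 BRG1-alone peaks each, and SNAI1, an epithelial-mesenchymal transition factor gene, had 3 beside 2 co-occupied ones.

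SMARCC2-alone peaks took a larger share at genes of steroid metabolism, with 14 of 45 peaks (31.1%) against 3 BRG1-alone peaks (6.67%). A SMARCC2-alone peak was linked to 8 of these 16 genes, against 25.5% of all genes. The share of peaks was higher for canonical BAF genes (33.3%, 11 of 33) and PBAF genes (38.5%, 5 of 13). For hepatocyte and muscle genes it was 27.3% (3 of 11). A high SMARCC2-alone share was thus not particular to steroid metabolism. AKR1D1, the 5β-reductase gene, HSD3B1 and SRD5A2, a 5α-reductase gene, had 3 each and no BRG1-alone peak. HSD3B1 also had 1 co-occupied site with 62 BRG1 and 81 SMARCC2 tags, while its SMARCC2-alone summits had 11 to 23. In the YAP and TEAD list the SMARCC2-alone share was close to that of all linked peaks (19.3%, 17 of 88), and the BRG1-alone share was 7.95%. TEAD1, a DNA-binding partner of YAP, had 5 SMARCC2-alone peaks with 18 to 23 tags and 0 BRG1-alone peaks, and PTPN14 and YAP1 had 4 and 3. The neuroendocrine list had 22 co-occupied, 5 BRG1-alone and 8 SMARCC2-alone peaks (62.9%, 14.3% and 22.9%), against 64.9%, 17.3% and 17.8% of all linked peaks. The SMARCC2-alone ones included single peaks at ends of NCAM1 and SCG2.

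For androgen-induced genes the split between classes was near that of all linked peaks, but more of the genes had peaks of each class. Of the 26 genes, 24 (92.3%) had co-occupied, 15 (57.7%) BRG1-alone and 15 (57.7%) SMARCC2-alone peaks, against 61.3%, 28.0% and 25.5% of all genes. Their list had 149 co-occupied, 32 BRG1-alone and 47 SMARCC2-alone peaks (65.4%, 14.0% and 20.6%), and a median of 5.5 co-occupied peaks per gene against 1 over all genes. PMEPA1, an androgen-induced inhibitor of TGF-β signalling, had 14 co-occupied peaks, ABCC4 11 and TMPRSS2 10. The co-occupied BRG1 summits of TMPRSS2, an androgen-induced protease gene, had 16 to 67 tags, and its 3 BRG1-alone summits had 15 to 21. KLK2, a kallikrein gene next to the gene of prostate-specific antigen, had 3 co-occupied BRG1 peaks with 46, 75 and 77 tags, 4 BRG1-alone peaks with 14 to 19 tags and 1 SMARCC2-alone peak with 19 tags. Its BRG1-alone summits were all below its co-occupied BRG1 summits. The co-occupied SMARCC2 summits of KLK2 had 22, 84 and 105 tags, so its SMARCC2-alone summit was close to the lowest of them. PLPP1, a phospholipid phosphatase gene, had 7 SMARCC2-alone and 0 BRG1-alone peaks.

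The luminal prostate list had 62 co-occupied peaks of 84 (73.8%), 16 BRG1-alone peaks and 6 SMARCC2-alone peaks (7.14%). Its BRG1-alone share was slightly above that of all linked peaks, so of the alone classes only SMARCC2-alone was low. A BRG1-alone peak was linked to 11 of its 15 genes, against 28.0% of all genes. FOLH1, the gene of prostate-specific membrane antigen, had 12 co-occupied BRG1 peaks with 25 to 105 tags. The glucocorticoid list had 63 co-occupied, 12 BRG1-alone and 17 SMARCC2-alone peaks. These shares (68.5%, 13.0% and 18.5%) were near those of all linked peaks. ZBTB16 held 21, 5 and 8 of the peaks. FKBP5, a chaperone gene induced by androgens and glucocorticoids, had 7, 1 and 4.

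Of the further lists, CTCF and cohesin genes had the highest co-occupied share among lists with at least 20 peaks (82.9%, 29 of 35). The shares of co-occupied, BRG1-alone and SMARCC2-alone peaks were 64.1%, 18.4% and 17.5% for Wnt genes, 71.2%, 13.6% and 15.3% for cell cycle and MYC genes, and 73.7%, 7.89% and 18.4% for interferon and inflammatory genes. They were 60.8%, 19.2% and 24 of 120 peaks for Polycomb genes, 70.7%, 19.5% and 9.76% for proteasome subunits, 62.5%, 16.7% and 20.8% for complex I, and 60.6%, 18.2% and 21.2% for basal and stem-like genes. In the Polycomb list KDM6A alone held 37 of 73 co-occupied, 8 of 23 BRG1-alone and 10 of 24 SMARCC2-alone peaks. Lists of other cell types were included as well. The fibroblast list had 10 co-occupied, 8 BRG1-alone and 4 SMARCC2-alone peaks at 12 genes. Leukocyte genes had 5, 4 and 1, and hepatocyte and muscle genes 6, 2 and 3, with no peak of any class at 6 of 12 genes in each. No such peak was linked to 3 of the 12 fibroblast genes and to 5559 of all 20033 genes. A co-occupied BRG1 peak at an end was found at 0, 2 and 2 of 12 genes in these cell-type lists, against 38.2% of all genes.

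**Figure D5:**
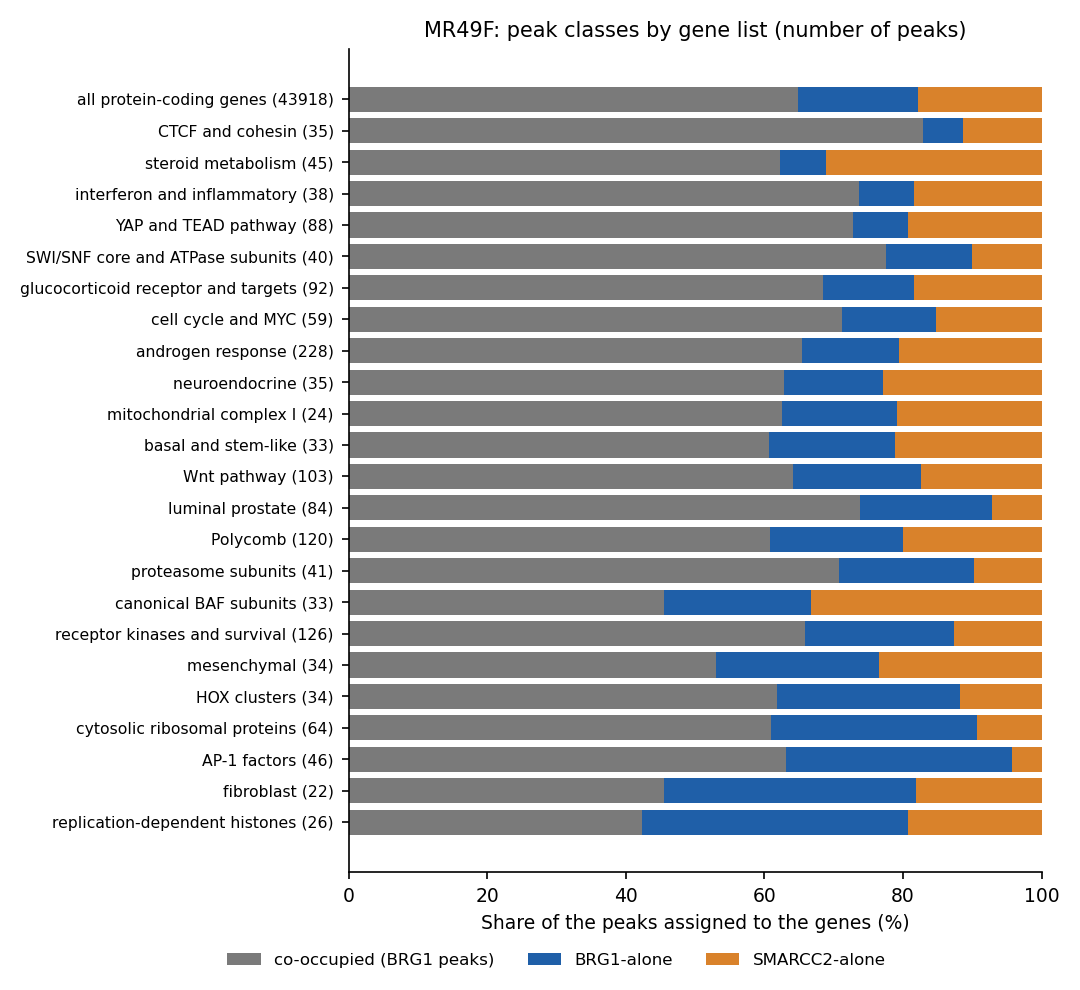
Share of co-occupied (grey, counted as BRG1 peaks), BRG1-alone (blue) and SMARCC2-alone (orange) peaks among the MR49F peaks linked to the genes of each list (x axis, percent), with the number of peaks in parentheses, for the lists described here with at least 20 peaks. The top bar is all protein-coding genes, and the lists below are ordered by their BRG1-alone share.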

How the data were processed

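Fixation used 2 mM DSG (45 min) and then 1% formaldehyde (10 min), and each immunoprecipitation 4 µg of antibody, per the labels' protocols. Per the submitters' processing notes, BWA 0.7.10, SAMtools and MACS2 2.1.0 were named, with build hg38. No source used here states duplicate treatment, read filters or which input served as control. The 2 inputs were not analysed here.

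The deposited values per peak are the authors' fold enrichment (a ratio), −log10 p-value and −log10 q-value, called per library. The lowest deposited −log10 q-values were 2.01 and 2.00, which corresponds to a threshold of 0.01. A deposited display score was not used. The peak lists give no total tag number, so depth is unknown. Summit tags and local background were solved from the authors' fold, (tags + 1) / (background + 1), and the upper Poisson tail. Tags came out within 0.05 of a whole number at 100% of peaks of both lists. The lowest background was 2.62 tags for BRG1 and 2.39 for SMARCC2, and the lowest summit had 10 tags in each.

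Peaks were intersected in Python 3.11.15 (SciPy 1.17.1, pandas 2.3.3, NumPy 2.4.6, plots in matplotlib 3.10.9), and the code was tested on simulated data. Gene spans and 20033 protein-coding genes on the main chromosomes came from RefSeq (GRCh38.p14), and starts were given for 15842 of them, so location used gene ends. The 62 BRG1 and 63 SMARCC2 peaks on other sequences have no location. Of 485 list entries, 484 matched a gene. The members, lists and motifs were chosen with earlier results of these data known. Named genes were the 8 with the most peaks of each class, genes of the 5 strongest peaks per class, SWI/SNF genes and up to 3 per list and class. Up to 2 promoters per class were printed. Some genes, 1 list and 1 motif are not reported here. Other genes named for their widest peaks were chosen after their values were seen.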

Additional observations from a re-analysis of the deposited data

How the results depend on the processing

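No paired analysis was possible because each antibody has 1 library and no test was run. Co-occupied shares of BRG1 and SMARCC2 peaks were 65.2% and 60.6% with 50% reciprocal overlap, 62.4% and 58.1% with summits within 200 bp, 82.5% and 73.7% when both lists were limited to −log10 q-values from 5 up, 71.5% and 72.0% with the 10000 strongest peaks of each, and 72.2% and 67.3% when the limit of 5 applied to the partner list. The median summit distance was 62, 58 and 29 bp with reciprocal overlap, the limit of 5 and the 10000 strongest peaks. Median widths with reciprocal overlap were 617 bp (BRG1-alone), 913 bp (co-occupied SMARCC2) and 552 bp (SMARCC2-alone). With the limit of 5 they were 1021 and 661.5 bp (BRG1, co-occupied and alone) and 960 and 547 bp (SMARCC2).

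Gene-end shares of co-occupied BRG1, BRG1-alone and SMARCC2-alone peaks were 15.8%, 12.9% and 4.97% within 500 bp and 27.0%, 24.2% and 9.56% within 2 kb. They were 26.0% and 9.30% for the alone classes with the limit of 5, and 22.7%, 22.0% and 14.4% with reciprocal overlap. BRG1-alone exceeded SMARCC2-alone in each of these 4 settings, by 7.93, 14.7, 16.7 and 7.63 percentage points, and by 12.2 as first given. Genes with BRG1-alone and SMARCC2-alone peaks numbered 3434 and 2365 with assignment within 10 kb, and 7749 had SMARCC2-alone peaks with reciprocal overlap.

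Overlap with LNCaP BRG1 and SMARCC2 by summits within 200 bp was 40.6% and 35.9% for co-occupied BRG1, 18.3% and 8.73% for BRG1-alone and 16.2% and 13.7% for SMARCC2-alone peaks. With the limit of 5 in all lists it was 51.4% and 42.1%, 28.5% and 11.2%, and 18.6% and 16.0%. Among named genes, the limit of 5 left 0 BRG1-alone peaks at 35 of 117 genes and 0 SMARCC2-alone peaks at 20 of 117. Without replicates, and at a median of 18 to 20 summit tags, single alone peaks are the least certain values here.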
